A study of Mus musculus with 34 samples.

Results

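The SGK kinases, their activating kinase, the NEDD4 ubiquitin ligases and the NDRG substrates were followed in the dorsal hippocampus after spatial object recognition (SOR) learning. The 8 genes were taken by symbol from a bulk RNA-seq table of 54532 genes: *Sgk1*, *Sgk2*, *Sgk3*, *Pdpk1*, *Nedd4*, *Nedd4l*, *Ndrg1* and *Ndrg2*. The symbols come from GENCODE M21 (GRCm38), and all 8 genes passed the filter on low counts. *Sgk1* rose after learning, while no change was called for the other 7 genes.

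RNA was sequenced from whole dorsal hippocampus of 8 adult male C57BL/6J mice aged 2–3 months, with 1 library per mouse. The 4 SOR mice were habituated in an open field, then had 3 sessions there with objects at fixed places, and tissue was taken 1 h after training. The 4 homecage mice were not trained, and the labels name no transgene or drug for either group. The arena, the objects and the learning came together, so their effects cannot be told apart.

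SGK kinases belong to the AGC family and resemble AKT. Growth factor signals act through PI3K and mTORC2, and PDK1, the product of *Pdpk1*, then phosphorylates the activation loop. SGK1 differs from most kinases in that its gene is itself strongly transcribed after glucocorticoids, serum and neuronal activity, and the protein is short-lived. Active SGK1 phosphorylates NEDD4L, which then binds 14-3-3 proteins and leaves channels such as the epithelial sodium channel at the membrane, and it phosphorylates NDRG1 and NDRG2. These are protein modifications, which RNA counts do not measure.

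The starts of *Sgk1* are shown first because the gene has several of them and is known for its response to glucocorticoids. RefSeq (GRCm38.p6) gives 6 start windows for *Sgk1*, each running from 250 bases before to 50 bases after a start. They were searched on both strands for an exact form of the glucocorticoid response element, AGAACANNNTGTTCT, called complete here, and for either of its arms (AGAACA or TGTTCT). The cAMP response element TGACGTCA and its shorter form TGACG or CGTCA, which lies within it, were also searched for. Elements that differ from these letters were not counted. An arm was present in 3 of the 6 windows, the complete cAMP element in 0 and its shorter form in 1. The window at chr10:21993640-21993939 (+ strand) held a complete glucocorticoid element, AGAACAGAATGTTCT, at chr10:21993701-21993715, and 1 more arm. The window nearest the gene's 3′ end, chr10:21994416-21994715 (+ strand), held none of these motifs and had a GC content of 69.7%, against 46.3% for the other. Both are printed 5′ to 3′ with motif matches in capitals.
Sgk1 window with the complete element: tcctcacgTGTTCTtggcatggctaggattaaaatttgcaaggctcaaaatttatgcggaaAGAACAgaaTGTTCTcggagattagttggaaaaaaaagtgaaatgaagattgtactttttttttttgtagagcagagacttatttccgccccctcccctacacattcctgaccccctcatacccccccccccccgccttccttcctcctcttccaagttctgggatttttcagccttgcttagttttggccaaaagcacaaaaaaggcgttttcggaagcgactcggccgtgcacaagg
Sgk1 window nearest the 3′ end: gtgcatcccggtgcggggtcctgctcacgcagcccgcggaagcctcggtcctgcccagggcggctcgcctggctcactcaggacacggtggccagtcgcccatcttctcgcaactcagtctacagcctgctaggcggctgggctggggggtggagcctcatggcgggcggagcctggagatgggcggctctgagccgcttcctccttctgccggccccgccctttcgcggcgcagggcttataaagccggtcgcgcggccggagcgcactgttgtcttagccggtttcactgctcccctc
The complete element lay within the 250 bases before the transcription start of its own window. It lay 951 bases before the start in the second window. Among all 32851 RefSeq windows these exact letters were present in 3 (0.00913%), which belonged to *Sgk1*, *Acnat2* and *Gm35041*. That share does not count glucocorticoid elements with other letters. An arm was present in 19% and the shorter cAMP form in 20.8%. *Acnat2* and *Gm35041* had at most 4.14 counts in any library and were not tested. Among the genes without a called change, windows were found only for *Nedd4*, *Pdpk1* and *Ndrg2*, so the others were not searched. *Nedd4* had an arm in 1 of 2 windows and the shorter cAMP form in 1. *Pdpk1* had no arm and the shorter cAMP form in 1 of 2 windows, and *Ndrg2* had neither in 3 windows. A match of letters is a description of the sequence and not evidence of binding, and counts per gene do not show which start was used.

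*Sgk1* (ENSMUSG00000019970; chromosome 10, bases 21882184 to 21999903, + strand) encodes the inducible kinase of the family. In the homecage mice its level was 51.9, 48.1, 54.5 and 63.8 CPM (counts scaled to library size, with upper-quartile factors). In the SOR mice it was 153, 151, 118 and 133 CPM. Every SOR mouse lay above every homecage mouse, and the lowest SOR value was far from the highest homecage value. The mean rose from 54.6 ± 6.67 to 139 ± 16.5 CPM (SD, n = 4 each), a 2.54-fold difference. On the log2 scale this was 1.35 with an SE of 0.0994 and a 95% interval of 1.13 to 1.57 (edgeR quasi-likelihood F test, Benjamini-Hochberg adjusted p = 3.78e-04 over 22018 genes). The exact two-sided permutation test gave p = 0.0286, the smallest that 4 against 4 allows. By p, *Sgk1* ranked 3 of all genes tested. Called genes (adjusted p below 0.05 with more than 1.4-fold change) made up 0.173% of those tested, and 1 of the 8 genes described here was among them. Groups that did not overlap were found for 6.94% of all genes, and also for 1 of the 8. Because tissue was sequenced in bulk, a change in the number of cells of a type and a change in RNA per cell cannot be told apart.

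**Figure D1:**
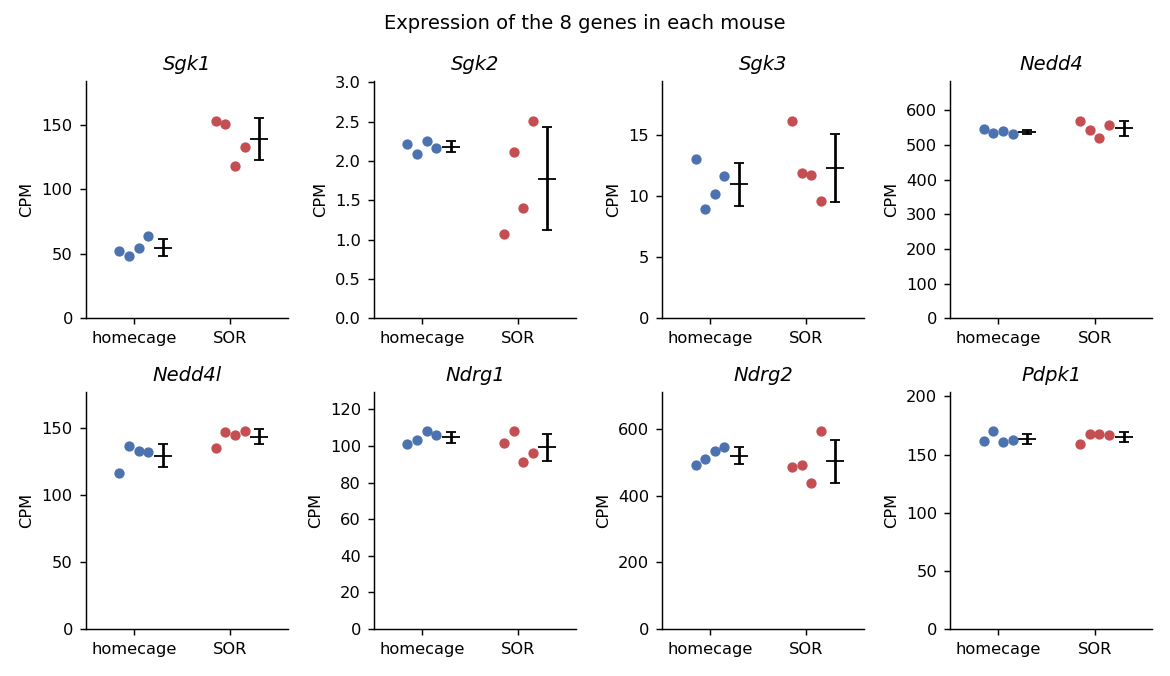
CPM of each of the 8 genes in every mouse, homecage and SOR, with 1 point per mouse and black bars for the group mean ± SD. *Sgk1* is the gene whose 4 SOR mice (118 to 153 CPM) all lie above the 4 homecage mice (48.1 to 63.8 CPM); the groups overlap for the other 7.

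The paralogs of *Sgk1* were much lower. *Sgk3* (ENSMUSG00000025915; chromosome 1, bases 9798107 to 9900845, + strand) encodes a kinase with a PX domain that places it on endosomes. Its level was 13.1, 8.96, 10.1 and 11.6 CPM in homecage mice and 16.2, 11.9, 11.7 and 9.56 CPM after SOR. The groups overlapped, and SOR replicate 4 lay below 3 of the 4 homecage mice. The difference was 0.17 on the log2 scale (SE 0.162, interval -0.18 to 0.53, edgeR adjusted p = 0.776). *Sgk3* overlaps 2 genes on the opposite strand.

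*Sgk2* (ENSMUSG00000017868; chromosome 2, bases 162987330 to 163014127, + strand) was the lowest of the 8, with 79.9 to 172 counts per library. It measured 2.22, 2.09, 2.25 and 2.16 CPM in homecage mice and 1.08, 2.11, 1.397 and 2.51 CPM after SOR. The homecage mice were close together, while SOR mice lay on both sides of them. The log2 difference of -0.31 had an SE of 0.232 and an interval of -0.82 to 0.21 (edgeR adjusted p = 0.712).

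*Pdpk1* (ENSMUSG00000024122; chromosome 17, bases 24073680 to 24150924, − strand), the kinase that activates all SGK and AKT proteins, had the smallest SE of the 8 (0.036). Its values were 161, 170.04, 161 and 162 CPM in homecage mice and 158.7, 167, 167 and 167 CPM after SOR. The group means of 164 ± 4.25 and 165 ± 4.32 CPM lay within the spread between mice. The log2 difference was 0.01 (interval -0.07 to 0.09, edgeR adjusted p = 0.942), and 1 of the 2 genes that overlap *Pdpk1* lies on the opposite strand.

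The change of *Sgk1* was then set against its relatives within each library, which does not depend on scaling. Of 5 ratios compared, the log2 ratio of *Sgk1* to *Sgk3* went from 2.32 in homecage to 3.51 in SOR mice, a difference of 1.19 (SE 0.173). The ratio to *Pdpk1* went from -1.59 to -0.26, a difference of 1.33 (SE 0.14). In both ratios the SOR mice lay above all homecage mice (exact two-sided permutation p = 0.0286, adjusted p = 0.0476 over the 5 ratios). Because the groups were already apart in *Sgk1* alone and these ratios share it, they are not separate evidence of its rise. The change of *Sgk1* was larger than that of either kinase.

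The ubiquitin ligases differed from each other in level more than between groups. *Nedd4* (ENSMUSG00000032216; chromosome 9, bases 72662346 to 72749852, + strand), the founding member of its family, measured 546, 534, 540.3 and 531 CPM in homecage mice and 570.5, 545, 519.7 and 558 CPM after SOR. The lowest and the highest of all 8 values were SOR mice, so the homecage range lay inside the SOR range. The log2 difference was 0.03 (SE 0.0404, interval -0.06 to 0.12, edgeR adjusted p = 0.871). *Nedd4* overlaps 4 genes on its own strand.

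*Nedd4l* (ENSMUSG00000024589; chromosome 18, bases 64887705 to 65217828, + strand), whose protein is the SGK1 substrate, came nearest to a call among the other 7. It measured 116, 136, 133 and 132 CPM in homecage mice and 135, 147, 145 and 148 CPM after SOR. SOR replicate 1 fell just below homecage replicate 2, and the remaining SOR mice lay above the whole homecage group. The mean was 129 ± 8.84 CPM in homecage mice and 144 ± 5.90 CPM after SOR. The log2 difference of 0.15 had an SE of 0.0536 and an interval of 0.03 to 0.27, with an edgeR unadjusted p of 0.0181 and an adjusted p of 0.381. It passed in 0 of 13 alternative fits. Its adjusted p there ran from 0.0539 (likelihood ratio test with 3 RUVs factors) to 0.502 (edgeR quasi-likelihood F test without a filter on low counts). The log2 ratio of *Nedd4* to *Nedd4l* was 2.06 in homecage and 1.93 in SOR mice (difference -0.12, SE 0.0781, exact permutation p = 0.171, adjusted p = 0.214). *Nedd4l* overlaps 2 antisense genes, and whether counting used strand is not given in the sources used here.

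The NDRG substrates showed no called change in RNA. *Ndrg1* (ENSMUSG00000005125; chromosome 15, bases 66929318 to 66969640, − strand), needed for the upkeep of myelin in peripheral nerve, measured 101, 103, 108 and 106 CPM in homecage mice and 102, 108, 91.0 and 96.2 CPM after SOR. Both of the lowest values were SOR mice, and the other SOR mice lay within the homecage range. The log2 difference was -0.08 (SE 0.0524, interval -0.19 to 0.04, edgeR adjusted p = 0.67), and *Ndrg1* overlaps 2 genes on the opposite strand.

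*Ndrg2* (ENSMUSG00000004558; chromosome 14, bases 51905271 to 51914158, − strand) is abundant in astrocytes. It measured 490.2, 509, 534 and 545 CPM in homecage mice and 485, 492, 439 and 593 CPM after SOR. The lowest and the highest of all 8 mice were both SOR mice. The log2 difference of -0.05 (SE 0.0807, interval -0.23 to 0.13, edgeR adjusted p = 0.887) turned to 0.0099 without SOR replicate 3. The log2 ratio of *Ndrg1* to *Ndrg2* was -2.31 in homecage and -2.33 in SOR mice (exact permutation p = 1).

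**Figure D2:**
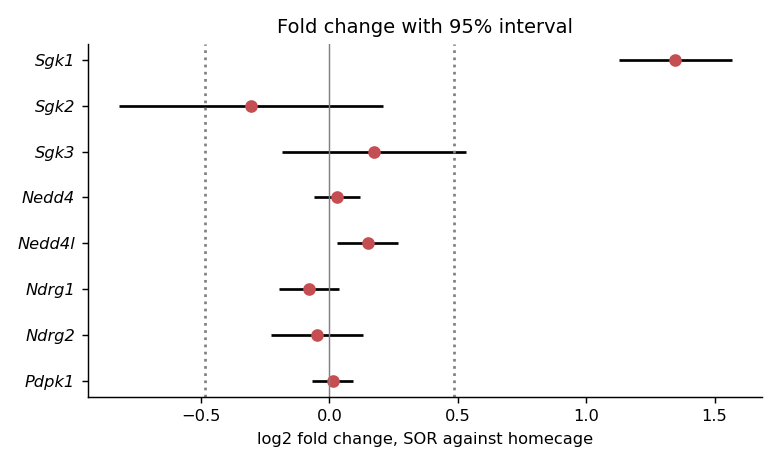
Log2 fold change of SOR over homecage for each of the 8 genes, with the 95% interval from the edgeR fit as a line and the 1.4-fold change in either direction as dotted lines. *Sgk1* lies at 1.35; *Sgk2* has the widest interval (-0.82 to 0.21) and *Pdpk1* one of the narrowest (-0.07 to 0.09).

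Levels were compared between genes as CPM per kilobase of exon, with the length taken over all annotated exons of each gene. Which of these exons were in use was not considered. In homecage mice *Ndrg2* was highest at 153 ± 7.24, followed by *Nedd4* at 49.0 ± 0.619, *Ndrg1* at 15.9 ± 0.445, *Pdpk1* at 15.0 ± 0.388, *Sgk1* at 11.1 ± 1.36, *Nedd4l* at 7.33 ± 0.501, *Sgk3* at 0.765 ± 0.125 and *Sgk2* at 0.639 ± 0.0202 CPM per kilobase (SD, n = 4). The neighbours *Ndrg1* and *Pdpk1*, and *Sgk3* and *Sgk2*, overlapped in range, and the other neighbours did not. In SOR mice *Sgk1* reached 28.3 ± 3.36 CPM per kilobase and moved from place 5 to place 3, above *Pdpk1* (15.1 ± 0.395) and *Ndrg1* (15.04 ± 1.10). The order of the others was the same apart from that pair, which again overlapped.

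The genes whose pattern over the 8 libraries was nearest to *Sgk1* were sought among the 16351 genes averaging 1 CPM or more, by the root mean square difference of log2 CPM centred on each gene's mean. The nearest were *Arc*, a synaptic immediate early gene (0.156), *Plin4*, a lipid droplet protein (0.223), *Atf3*, a stress-induced transcription factor (0.24), *Nostrin* (0.243) and *Plekhf1* (0.247). The median over all genes compared was 0.71. *Arc* went from 91.9 to 246 CPM, a log2 difference of 1.42. The group difference was left in the measure, so genes with a similar change after SOR rank near *Sgk1*. The points share their libraries, and the measure is a description without a test.

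Genes around the kinases were read from lists chosen with earlier results of these data known. Over all 22018 genes the median log2 difference was -0.02, 43.8% of genes were higher in SOR mice, and 0.273% passed an adjusted p under 0.05 in the higher and 0.0363% in the lower direction. Of 18 genes for PI3K, mTORC2 and phosphatases upstream of SGK, 0 passed in either direction and the median was 0.03. The largest differences there were *Prr5*, an mTORC2 subunit (2.27 ± 0.329 to 2.93 ± 0.718 CPM, log2 0.37, edgeR adjusted p = 0.545), and *Pik3cg* (log2 -0.25, adjusted p = 0.53). Of 19 other AGC kinases that PDK1 activates, 0 passed and the median was -0.04. *Rps6kb2*, an S6 kinase, had the largest difference at -0.37 (adjusted p = 0.67), with 15.4 CPM in homecage replicate 4 against 6.69 to 7.46 in the other homecage mice. *Rps6ka3*, an RSK kinase, measured 27.6 ± 1.24 and 32.1 ± 2.03 CPM (log2 0.22, adjusted p = 0.225) and passed in 1 of 13 alternative fits.

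Of 13 other NEDD4-family ligases and adaptors, 0 passed and the median was 0.04. *Arrdc2*, an arrestin-like adaptor, measured 4.83, 8.09, 6.16 and 9.34 CPM in homecage mice and 10.7, 12.4, 8.86 and 13.5 CPM after SOR. The groups overlapped through SOR replicate 3, and the log2 difference was 0.67 (edgeR adjusted p = 0.268; it passed in 3 of 13 alternative fits). *Arrdc4* had SOR mice above all homecage mice (10.8 ± 0.298 and 12.7 ± 1.24 CPM, log2 0.23, adjusted p = 0.38). The NDRG paralogs *Ndrg3* (log2 0.02, adjusted p = 0.926) and *Ndrg4* (log2 -0.02, adjusted p = 0.905) did not pass.

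Of 8 FOXO and other substrates shared with AKT, 0 passed and the median was 0.05. *Foxo3*, a transcription factor that SGK and AKT keep out of the nucleus, measured 53.0 ± 1.65 and 61.4 ± 4.68 CPM (log2 0.21, edgeR adjusted p = 0.213) and passed in 3 of 13 alternative fits. *Foxo6* followed (log2 0.15, adjusted p = 0.684). Of 16 channels and transporters under SGK or NEDD4L control, 14 were tested, 0 passed and the median was -0.02. *Scnn1b* and *Trpv5* were too low to test. *Slc6a6*, the taurine transporter, measured 92.1, 84.7, 88.2 and 91.5 CPM in homecage mice and 67.2, 72.6, 82.01 and 70.3 CPM after SOR. Every SOR mouse lay below the homecage mice, yet the log2 difference of -0.29 had an adjusted p of 0.105. *Slc6a6* passed in 5 of 13 alternative fits and in 1 of 8 without 1 mouse. *Slc9a3*, a sodium-proton exchanger, was low in both groups (log2 -0.18, adjusted p = 0.832).

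Of 16 genes in the glucocorticoid list, 4 rose past the adjusted p (all 4 also past the fold change of 1.4), 0 fell, and the median was 0.38. The count past the adjusted p was 9 with the edgeR likelihood ratio test, 10 with DESeq2 and with 1 to 3 RUVs factors, and 4 to 5 in the other alternative fits. *Tsc22d3*, which encodes the leucine zipper protein GILZ, rose from 42.2 ± 1.52 to 65.6 ± 7.87 CPM (log2 0.63, edgeR adjusted p = 0.00553). *Nfkbia*, the inhibitor of NF-κB, rose from 11.0 ± 0.46 to 19.1 ± 1.90 CPM (log2 0.80, adjusted p = 0.00239). *Errfi1*, a feedback inhibitor of the EGF receptor, rose by 0.56 (adjusted p = 0.00477), and *Plin4* by 1.6 (adjusted p = 0.00105). Each of the 4 passed in 13 of 13 alternative fits and in 8 of 8 without 1 mouse. In 11 of the 16 genes all SOR mice lay above the homecage mice, and in 1, *Nr3c1*, all lay below. Over all genes tested, groups did not overlap in 6.94%, counting both directions. The list was chosen with earlier results of these data known, so its counts are not a test against that share. *Nr3c1*, the glucocorticoid receptor, measured 146 and 136 CPM (log2 -0.10, adjusted p = 0.365), and *Fkbp5*, a classical glucocorticoid target, 37.1 and 36.4 CPM. Many of these genes also respond to other signals, and hormone was not measured.

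**Figure D3:**
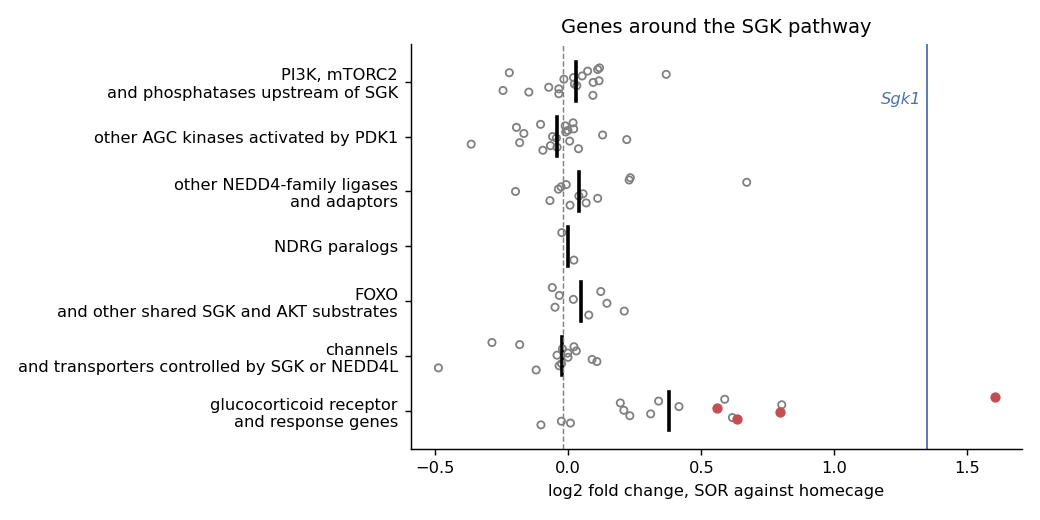
Log2 fold change of SOR over homecage for every tested gene of each list around the SGK kinases, with the list median as a black bar, genes past the adjusted p as filled points, the median of all genes as a dashed line and *Sgk1* as a solid line. The glucocorticoid list has a median of 0.38, while the medians of the larger kinase, ligase and channel lists lie between -0.04 and 0.05.

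Marker genes were read beside *Sgk1* because oligodendrocytes are a known site of its expression. All 14 mature oligodendrocyte markers were lower in SOR mice, 0 passed, and the median was -0.17. Without SOR replicate 3, 12 were lower and 2 higher, with a median of -0.11. Their summed level was 6364 to 6962 CPM in homecage mice and 5213 to 6833 CPM after SOR. *Opalin* (29.4 and 20.9 CPM, log2 -0.50, edgeR adjusted p = 0.164) and *Aspa* (log2 -0.41, adjusted p = 0.0909) had all SOR mice below the homecage mice, and each passed in 5 of 13 alternative fits and in 0 of 8 without 1 mouse. The log2 ratio of *Sgk1* to the mean of this list went from -1.66 to -0.12, a difference of 1.54 (SE 0.134, exact permutation p = 0.0286, adjusted p = 0.0476). This ratio also holds *Sgk1*, so it is not separate evidence of the rise of *Sgk1*. Whether the number of these cells changed was not tested. Sums of the mature oligodendrocyte, precursor, astrocyte, microglia, neuron and endothelial lists all overlapped between the groups. In SOR mice 6 of 7 precursor markers were lower (median log2 -0.08), as were 8 of 10 microglia markers (-0.09). Lower too were 8 of 10 neuron markers (-0.01) and 4 of 10 astrocyte markers (0.02). The neuron median lay above the all-gene median of -0.02, and 43.8% of all genes were higher in SOR mice. The number of neuron markers lower was 4 without homecage replicate 2 and 9 without SOR replicate 3. Of the 10 endothelial markers, 5 were higher and 5 lower. Among them *Slc2a1*, a glucose transporter, passed (log2 0.37, edgeR adjusted p = 0.0403), while *Cldn5* (log2 -0.30, adjusted p = 0.199) and *Kdr* (log2 -0.38, adjusted p = 0.266) had all SOR mice below the homecage mice. The call of *Slc2a1* was lost with scaling to library size alone, with the replicate block and without any 1 of the 8 mice. *Neurod6* and *Prox1*, markers of pyramidal and dentate granule neurons, averaged 241 and 107 CPM in homecage mice.

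The choroid plexus list varied most, with sums of 1116, 27.5, 68.5 and 898 CPM in homecage mice and 4058, 901, 811 and 44.4 CPM after SOR. All 9 of its markers were higher in SOR mice with a median log2 difference of 1.26, and 0 passed. Without SOR replicate 1 the median was 0.09, with 7 markers higher and 2 lower. *Sgk1* measured 133 CPM in the SOR mouse lowest in these markers and 153 CPM in the SOR mouse highest in them, and 48.1 and 51.9 CPM in the lowest and highest homecage mice. The part of these markers in the change of *Sgk1* was not tested.

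**Figure D4:**
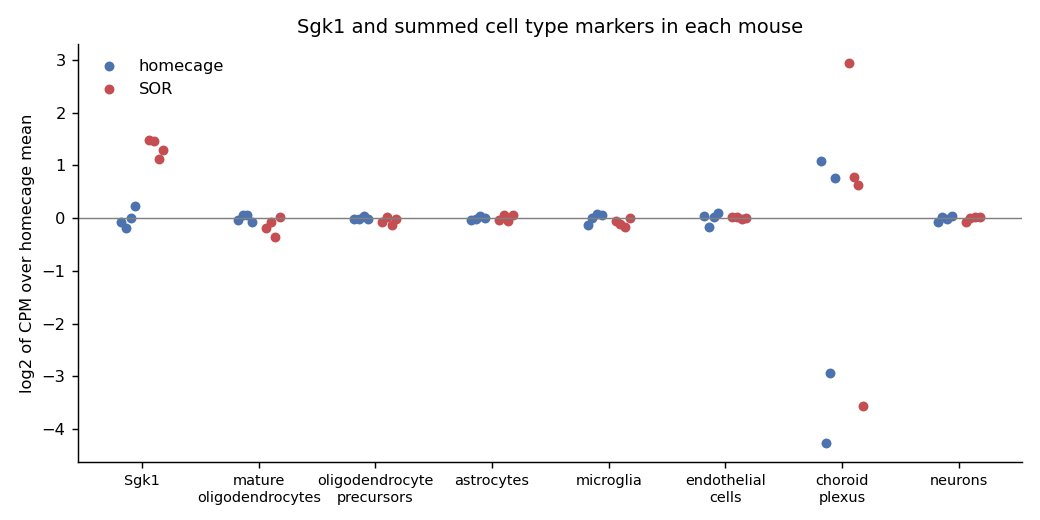
*Sgk1* and summed markers of 7 cell types in every mouse, as log2 of CPM over the homecage mean. The choroid plexus sums spread over both groups, while *Sgk1* separates them and the oligodendrocyte sums of SOR mice lie within or below the homecage range.

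The rise of *Sgk1* was then followed through 13 other fits and with each mouse left out. It passed in 13 of 13 fits with a log2 difference of 1.33 to 1.37, and in 8 of 8 fits without 1 mouse with 1.29 to 1.43. The other 7 genes passed in 0 of 13 and 0 of 8.

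**Figure D5:**
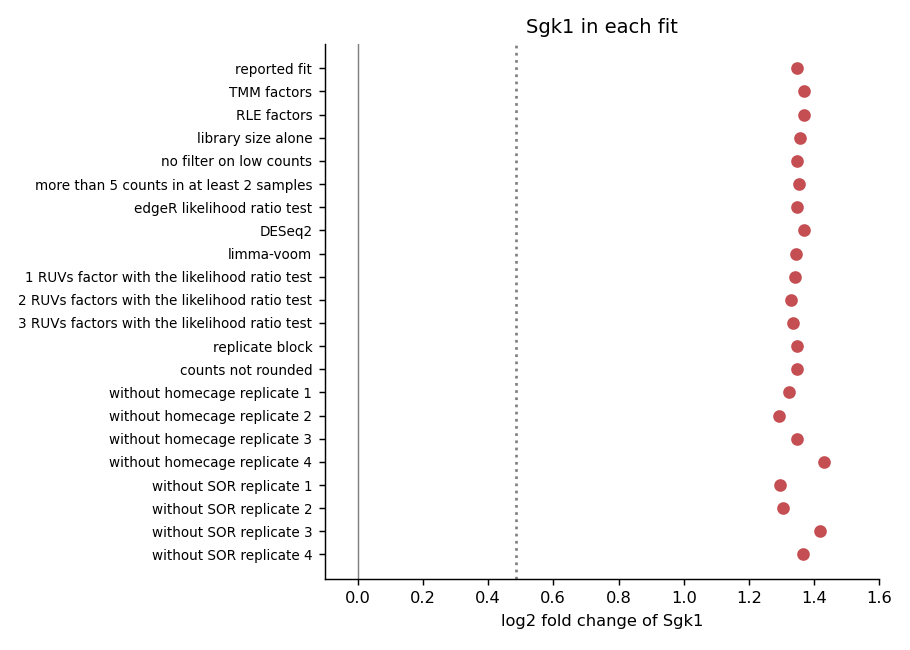
Log2 fold change of *Sgk1* under the reported edgeR fit, 13 alternative fits and each mouse left out in turn, with the 1.4-fold change as a dotted line. All values lie between 1.29 and 1.43.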

How the data were processed

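Bulk RNA-seq libraries came from 4 homecage and 4 SOR mice. The authors aligned reads with STAR and counted genes within bcbio-nextgen. The deposited values are estimated counts per gene summarized with tximport, not normalized, and 52.6% of them are not whole. The methods name featureCounts, while the quantifier behind tximport is not given in the sources used here. The methods name a ribosome-depleted total RNA kit and the labels polyA RNA. Spatial and single-nucleus data were not analysed here.

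Counts were rounded, filtered with filterByExpr and scaled with upper-quartile factors. edgeR 4.0.16 in R 4.3.3 compared the groups over 22018 genes (quasi-likelihood F test, Benjamini-Hochberg adjustment), and single values with exact permutation over 70 assignments. Intervals are 95%. Totals were 51406011 to 81525977 counts per library. Chi-square per degree of freedom between replicates was 11.9 to 54.2, so mice varied beyond counting error. The study's RUVs step has no stated number of factors, so 1 to 3 factors were alternatives, beside TMM, RLE, DESeq2 1.42.0, limma-voom 3.58.1, other filters and each mouse left out. The reported fit and some of the alternatives were also run on simulated data, whose outcome is not given here. The members and lists were chosen with earlier results of these data known. From each pathway list the text names genes past adjusted p, or otherwise the 2 largest differences at 1 CPM or more; marker lists are given mainly by sums and counts. Other genes named from the lists were chosen after their values were seen. Gene lengths and positions are from GENCODE M21, which holds 54495 of the 54532 genes. RefSeq start windows were found for *Sgk1*, *Nedd4*, *Ndrg2* and *Pdpk1*.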

Additional observations from a re-analysis of the deposited data

Results flagged for a closer look

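*Pdpk1* stood out in both groups by the gap of 1 mouse to the others relative to the range of the group (Dixon's test at its 95% critical value for 4 samples). In homecage replicate 2 its level was 170.04 CPM (ratio 0.883), and in SOR replicate 1 it was 158.7 CPM (ratio 0.97). These were 2 of the 16 groups examined, and chance flags about 1 in 20 groups.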

How the results depend on the processing

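*Sgk1* was the 1 called gene of the 8 in all 22 alternatives. The number of genes called over the whole table was 38. It rose to 114 with DESeq2, 68 without a fold-change threshold and 105 with the edgeR likelihood ratio test. With 1, 2 and 3 RUVs factors added to that likelihood ratio test it was 134, 191 and 203. Over the 13 alternative fits, the genes past the adjusted p numbered 0 to 1 in the AGC kinase and FOXO lists, 0 to 2 in the NEDD4-family and channel lists and 0 in the PI3K and NDRG lists. Leaving out each mouse gave 23 to 37 genes, with 23 without homecage replicate 2 and 24 without homecage replicate 4. With each mouse left out, the log2 difference of *Ndrg2* was -0.14 to 0.0099, turning positive without SOR replicate 3, and that of the *Ndrg1* to *Ndrg2* ratio was -0.0728 to 0.0724, turning positive without SOR replicate 4. Mice of the same number did not deviate together (r from -0.10 to 0.17, against -0.34 to 0.25 for other numbers). With the replicate number as a block, 30 genes were called, *Sgk1* differed by 1.35 (edgeR adjusted p = 0.00722) and no member's call changed. The median over all genes moved by less than 0.1 with any scaling. With 4 mice a group, small changes of *Sgk2* and *Sgk3* were not detectable. Ratios without 1 mouse have no test, since the smallest exact p is then 0.0571.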
